A study of Mus musculus with 43 samples.

Results

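The response of alveolar macrophages (AM) to hyperoxia was set against that of Ly6Chi monocytes and macrophages (Ly6Chi) from the lungs of newborn C57BL/6 mice. The quantity compared was a difference between log2 fold changes: hyperoxia over normoxia in AM, minus hyperoxia over normoxia in Ly6Chi, with the litter as a block. Every library labelled as one of these 2 populations entered, 22 of the 43 libraries of the series. These were 5 hyperoxic AM, 6 normoxic AM, 5 hyperoxic Ly6Chi and 6 normoxic Ly6Chi libraries. Newborn pups had been assigned at random to a fraction of inspired oxygen of 0.9 or to the normoxic control for 1.5 days, and the labels give no other treatment and no transgene. AM were sorted from digested lungs as SiglecFhi CD11chi cells and Ly6Chi as Ly6Chi CD11clo cells. Litters 93, 100 and 108 each gave libraries of both populations in both conditions, but litter 100 gave 1 hyperoxic library of each population (replicate 3) where the other litters gave 2. The number of cells and pups behind a library, and whether an AM and a Ly6Chi library came from the same pup, are not given in the sources used here, so the p-values measure the spread between these libraries, which may be technical in part.

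Alveolar macrophages live in the airspaces, where they take up surfactant and inhaled particles, and they arise from fetal monocytes around birth. Ly6Chi cells correspond to classical monocytes, which enter tissues from the blood and can become macrophages there. High oxygen raises the formation of reactive oxygen species. The transcription factor NRF2 escapes its inhibitor KEAP1 under oxidative stress and turns on genes of glutathione, thioredoxin and haem metabolism, and p53, which is stabilised by DNA damage, turns on genes that hold back the cell cycle.

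The sorted populations carried the markers of their labels. Marco, a scavenger receptor of alveolar macrophages, lay between 342 and 537 CPM (counts scaled to a common library size with TMM normalization) in hyperoxic AM and between 216 and 313 CPM in normoxic AM. In Ly6Chi, Marco reached at most 9.86 CPM in hyperoxia and 12.4 CPM in normoxia. Ly6c2, which codes for the Ly6C antigen of the sort, lay between 372 and 920 CPM in hyperoxic Ly6Chi and between 339 and 525 CPM in normoxic Ly6Chi, and at no more than 69.3 CPM in any AM library. Total counts per library ran between 551960 and 1636916 in hyperoxic AM, 570769 and 1701878 in normoxic AM, 1026528 and 2298828 in hyperoxic Ly6Chi, and 1525352 and 2393286 in normoxic Ly6Chi. The number of genes detected averaged 13770 in hyperoxic AM and 14525 in normoxic AM, and 14797 in hyperoxic Ly6Chi and 15064 in normoxic Ly6Chi. One library stood apart: hyperoxic Ly6Chi replicate 3 of litter 100 had a median correlation with its own group of 0.832 over log2 CPM, against 0.879 to 0.915 for the other Ly6Chi libraries. Its markers of T and NK cells summed to 693 CPM, against 23.7 to 150.5 CPM in the other hyperoxic Ly6Chi libraries.

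No gene passed the test for a difference between the populations. Of 11728 genes tested, edgeR called 0 (0%) at an adjusted p under 0.05, and the smallest adjusted p was 0.175. At an unadjusted p under 0.05 there were 584 genes (4.98%), 263 with a higher value in AM (2.24%) and 321 with a lower value in AM (2.74%). DESeq2 called 12 genes, limma voom 1, limma voom with library quality weights 1, and edgeR 209 when genes with few counts were kept. In AM alone edgeR called 12 genes as higher in hyperoxia (0.102%) and 0 as lower (0%), with 1059 genes at an unadjusted p under 0.05 (9.03%). In Ly6Chi alone it called 0 (0%), with 584 genes at an unadjusted p under 0.05 (4.98%) and a smallest adjusted p of 0.369, while DESeq2 called 8 and limma voom 0. Calls in AM and none in Ly6Chi do not by themselves show a difference, and the difference column and the AM column of results share the AM libraries. The count for the difference was 0 without each single library except hyperoxic AM replicate 1, without which edgeR called 2, Itgam and Slc11a1.

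Surface receptors and a metal transporter had the smallest p for the difference. Itgam (ENSMUSG00000030786) codes for the integrin alpha chain CD11b, which binds complement and fibrinogen on myeloid cells. It had 68.8, 66.0, 159, 77.6 and 193.9 CPM in hyperoxic AM, against 18.4 to 48.5 CPM with a median of 36.1 in normoxic AM. It had 311, 372, 419, 295 and 312.5 CPM in hyperoxic Ly6Chi, against 299 to 419 CPM with a median of 349.6 in normoxic Ly6Chi. Every hyperoxic AM library lay above every normoxic AM library, whereas the Ly6Chi groups overlapped over nearly their whole range. Itgam rose in AM by 1.71 ± 0.24 on the log2 scale (SE, adjusted p = 0.00139), had −0.02 ± 0.21 in Ly6Chi, and differed between them by 1.73 ± 0.32 (95% confidence interval 1.07 to 2.40, unadjusted p = 1.49e-05, adjusted p = 0.175). The level in hyperoxic AM stayed below every Ly6Chi library. The difference was 1.17 in litter 93, 1.49 in litter 100 and 2.32 in litter 108.

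Slc11a1 (ENSMUSG00000026177), also known as NRAMP1, codes for a transporter of iron and manganese in the phagosome, whose protein and function were not measured here. The RNA levels of Slc11a1 were 20.2, 41.1, 73.0, 46.4 and 180.3 CPM in hyperoxic AM, against 2.76 to 16.7 CPM with a median of 10.4 in normoxic AM. In Ly6Chi they were 350.1, 399, 249, 367.5 and 396 CPM in hyperoxia, against 204 to 409 CPM with a median of 346 in normoxia. Again the AM groups did not overlap and the Ly6Chi groups did. Slc11a1 rose in AM by 2.93 ± 0.44 (adjusted p = 0.00429), had 0.03 ± 0.32 in Ly6Chi and a difference of 2.90 ± 0.55 (1.76 to 4.04, adjusted p = 0.214). In AM the normoxic libraries held 4 to 18 counts of it, so its fold change there rests on few reads.

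Clec4d (ENSMUSG00000030144), a C-type lectin receptor that signals for phagocytes on contact with microbial lipids, was called in AM. It had 143, 142, 311, 169 and 317 CPM in hyperoxic AM, against 37.0 to 77.9 CPM with a median of 58.2 in normoxic AM. It had 73.4, 62.2, 312.5, 76.4 and 189.9 CPM in hyperoxic Ly6Chi, against 68.2 to 133 CPM with a median of 99.6 in normoxic Ly6Chi. The Ly6Chi groups overlapped, with replicates 3 and 5 above and the other 3 libraries within or below the normoxic range. Clec4d rose in AM by 1.99 ± 0.28 (adjusted p = 0.00139), and its difference was 1.56 ± 0.39 (0.75 to 2.36, adjusted p = 0.461). Vcan (ENSMUSG00000021614), the matrix proteoglycan versican that monocytes also make, had 17.5, 17.4, 37.4, 12.5 and 19.3 CPM in hyperoxic AM, against 1.14 to 12.8 CPM with a median of 5.61 in normoxic AM. In Ly6Chi it had 117, 117, 407, 137.5 and 152 CPM in hyperoxia, against 173 to 352 CPM with a median of 227 in normoxia. The hyperoxic libraries of Ly6Chi lay below every normoxic one except replicate 3, which lay above them all. Its difference was 2.11 ± 0.45 (1.18 to 3.04, adjusted p = 0.299), made of 1.68 ± 0.38 in AM, which was not called (adjusted p = 0.113), and −0.43 ± 0.25 in Ly6Chi. The normoxic AM libraries held 2 to 16 counts of Vcan, so its fold change in AM rests on few reads.

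**Figure D1:**
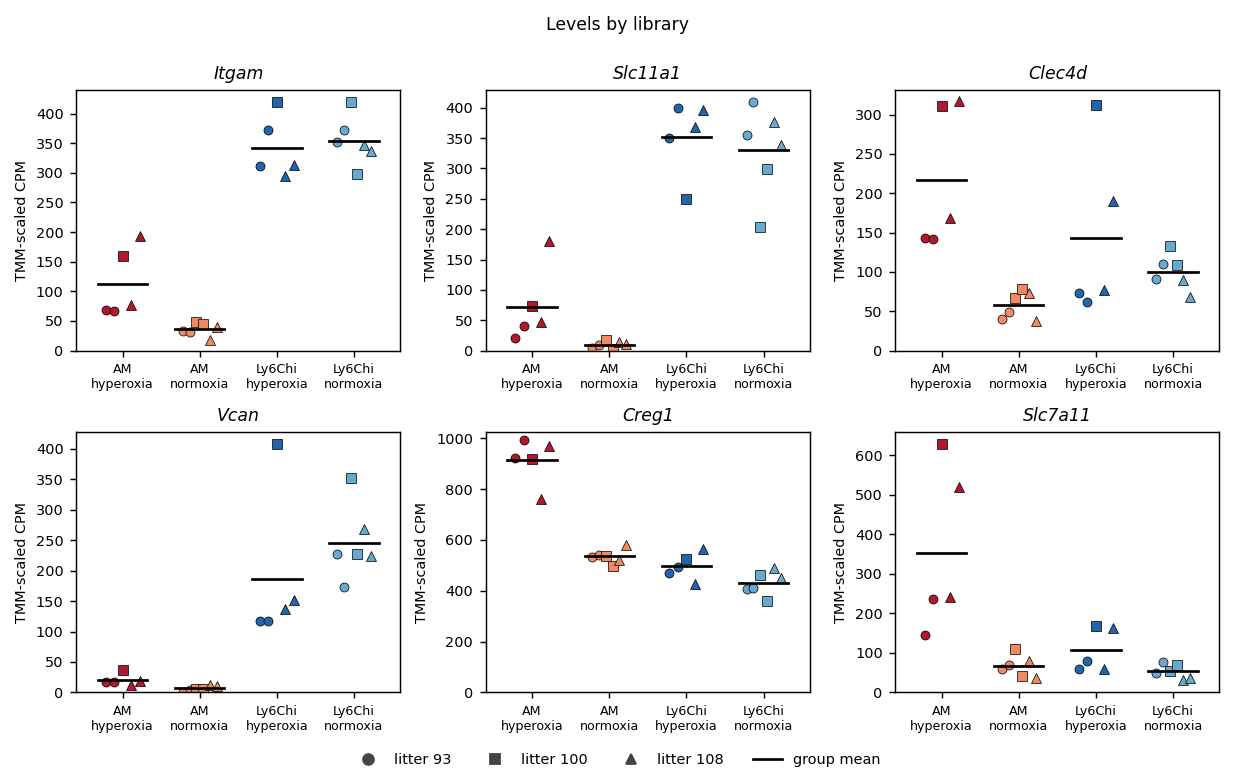
Levels of 6 genes in each library, in CPM scaled by TMM, with hyperoxic AM, normoxic AM, hyperoxic Ly6Chi and normoxic Ly6Chi from left to right; symbols mark the litter and the line is the group mean. The hyperoxic AM libraries lie above every normoxic AM library for Itgam, Slc11a1, Clec4d, Creg1 and Slc7a11, while the Ly6Chi groups overlap for all 6.

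The promoters of Itgam and Slc11a1, the genes with the smallest p, and of Ifit3, the interferon-stimulated gene with the smallest p, are given below from RefSeq on GRCm38.p6, as 250 bases before to 50 bases after the start. Capitals mark matches on either strand to GAGGAA, a core of the sites bound by the myeloid factor PU.1, and to a GAAA pair, meaning GAAA followed after 2 bases by GAAA, a form of the interferon-stimulated response element.
Itgam, chr7:128062390-128062689, plus strand: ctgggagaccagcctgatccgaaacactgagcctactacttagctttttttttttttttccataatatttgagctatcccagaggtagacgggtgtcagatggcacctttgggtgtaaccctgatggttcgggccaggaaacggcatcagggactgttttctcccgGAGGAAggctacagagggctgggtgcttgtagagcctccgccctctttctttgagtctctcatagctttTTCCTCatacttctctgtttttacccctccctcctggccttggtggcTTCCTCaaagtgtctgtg
Slc11a1, chr1:74374953-74375252, plus strand: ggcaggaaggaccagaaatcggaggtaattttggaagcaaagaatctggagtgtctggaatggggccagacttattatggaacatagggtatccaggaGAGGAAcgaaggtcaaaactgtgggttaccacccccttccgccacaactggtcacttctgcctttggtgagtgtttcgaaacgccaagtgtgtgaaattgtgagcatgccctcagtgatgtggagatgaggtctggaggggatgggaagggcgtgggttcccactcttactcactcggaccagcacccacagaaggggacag
Ifit3, chr19:34583279-34583578, plus strand: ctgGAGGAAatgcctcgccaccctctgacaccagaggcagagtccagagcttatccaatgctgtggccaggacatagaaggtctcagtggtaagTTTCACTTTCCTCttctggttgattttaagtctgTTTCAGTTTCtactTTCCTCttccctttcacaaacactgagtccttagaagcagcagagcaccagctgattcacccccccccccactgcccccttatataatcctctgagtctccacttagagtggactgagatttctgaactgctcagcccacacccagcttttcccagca
The Itgam promoter held GAGGAA 3 times, at −84 and −15 before and 32 after the start, and that of Slc11a1 once, at −152. The Ifit3 promoter held the GAAA pair at −156 and −122 and GAGGAA 3 times, at −247, −149 and −108, and the matches at −156 and −149 share bases. GAGGAA was found in 28.3% of 32851 promoters of this length and the GAAA pair in 3.44%. These are shares of single promoters, whereas a gene below was counted if any of its promoter entries held the match. Of the 10 named genes with the smallest p and a positive difference, 8 had a promoter entry, and 5 of these held GAGGAA and 2 held the GAAA pair. Of the 10 with a negative difference, 7 had an entry, of which 1 held GAGGAA and 0 held the GAAA pair. These matches describe letters in a window and are no evidence of binding.

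Markers of classical monocytes were counted beside Itgam, Slc11a1 and Vcan. Of the 20 markers, which include Itgam and Vcan themselves, 1 was called in AM, against 0.102% of all genes called higher. A fold change above 0 was found for 14 in AM and 10 in Ly6Chi, and 15 had a difference above 0, where 47.6% of all genes did. At an unadjusted p under 0.05, 8 were higher and 1 lower in AM, against 4.66% and 4.37% of all genes. For the difference 3 were higher and 1 lower, against 2.24% and 2.74%. In AM 2 of the 20 had every hyperoxic library above every normoxic one, against 0.401%. In AM the mean of the list was 0.506, 0.888 and −0.156 in litters 93, 100 and 108, so it was below 0 in litter 108. The median difference of 0.36 was 0.0324 without libraries under 1000000 counts. Their summed level ran between 2700 and 3265 CPM in hyperoxic AM and between 2377 and 2870 CPM in normoxic AM, against 8409 to 11510 CPM in hyperoxic Ly6Chi and 8475 to 11370 CPM in normoxic Ly6Chi. Ly6c2 lay between 26.1 and 69.3 CPM in hyperoxic AM and between 8.28 and 41.2 CPM in normoxic AM. Ms4a4c, another gene of classical monocytes, had 27.0, 7.47, 52.4, 5.35 and 9.95 CPM in hyperoxic AM, against 0 to 14.3 CPM in normoxic AM. F13a1, a coagulation factor chain made by monocytes, was no higher, at 0 to 18.9 CPM in hyperoxic AM and 0 to 16.4 CPM in normoxic AM. Hp, also on the list, went the other way, with a difference of −1.595. It had 22.9 to 37.4 CPM in hyperoxic AM, against 5.90 to 302 CPM in normoxic AM. Clec4d and Creg1 were higher in hyperoxic AM than in either Ly6Chi group by mean (216 ± 89.8 CPM for Clec4d in hyperoxic AM, against 143 ± 108 in hyperoxic and 100.0 ± 22.2 in normoxic Ly6Chi; SD). The part of monocytes among the sorted AM in these results was not tested, and in bulk RNA fewer cells of a type and less RNA per cell cannot be told apart.

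Secreted and lysosomal proteins followed among the 10 positive differences. Creg1 (ENSMUSG00000040713) codes for a glycoprotein of the lysosome and had the tightest values of the set. It had 921, 993, 919, 763 and 969 CPM in hyperoxic AM, against 499 to 580.2 CPM with a median of 535 in normoxic AM. Levels in Ly6Chi were 469.5, 495, 524, 425 and 565 CPM in hyperoxia, against 359.6 to 491 CPM with a median of 430.0 in normoxia. The AM groups lay far apart and the Ly6Chi groups overlapped. Creg1 rose in AM by 0.77 ± 0.11 (adjusted p = 0.00139), had 0.20 ± 0.11 in Ly6Chi and a difference of 0.57 ± 0.15 (0.26 to 0.88, adjusted p = 0.486). The difference was 0.59, 0.47 and 0.58 in litters 93, 100 and 108.

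Ccl9, a chemokine of macrophages, had 1329, 1147, 1531, 941 and 1249 CPM in hyperoxic AM, against 698.5 to 1055 CPM with a median of 852 in normoxic AM. Ly6Chi had 497, 468, 349, 428 and 441 CPM in hyperoxia, against 415 to 569 CPM with a median of 519 in normoxia. Its difference was 0.74 ± 0.19 (adjusted p = 0.461), with 0.51 ± 0.13 in AM and −0.23 ± 0.13 in Ly6Chi. Chn2, a GTPase-activating protein for Rac, was counted at most 13 times in any AM library, and its difference of 2.79 ± 0.76 (adjusted p = 0.530) rests on those reads. All 10 genes had a positive difference in each of the 3 litters, which their choice by the p of this difference favours. Of the 10 genes with a negative difference, chosen in the same way, 8 had a negative one in each litter.

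**Figure D2:**
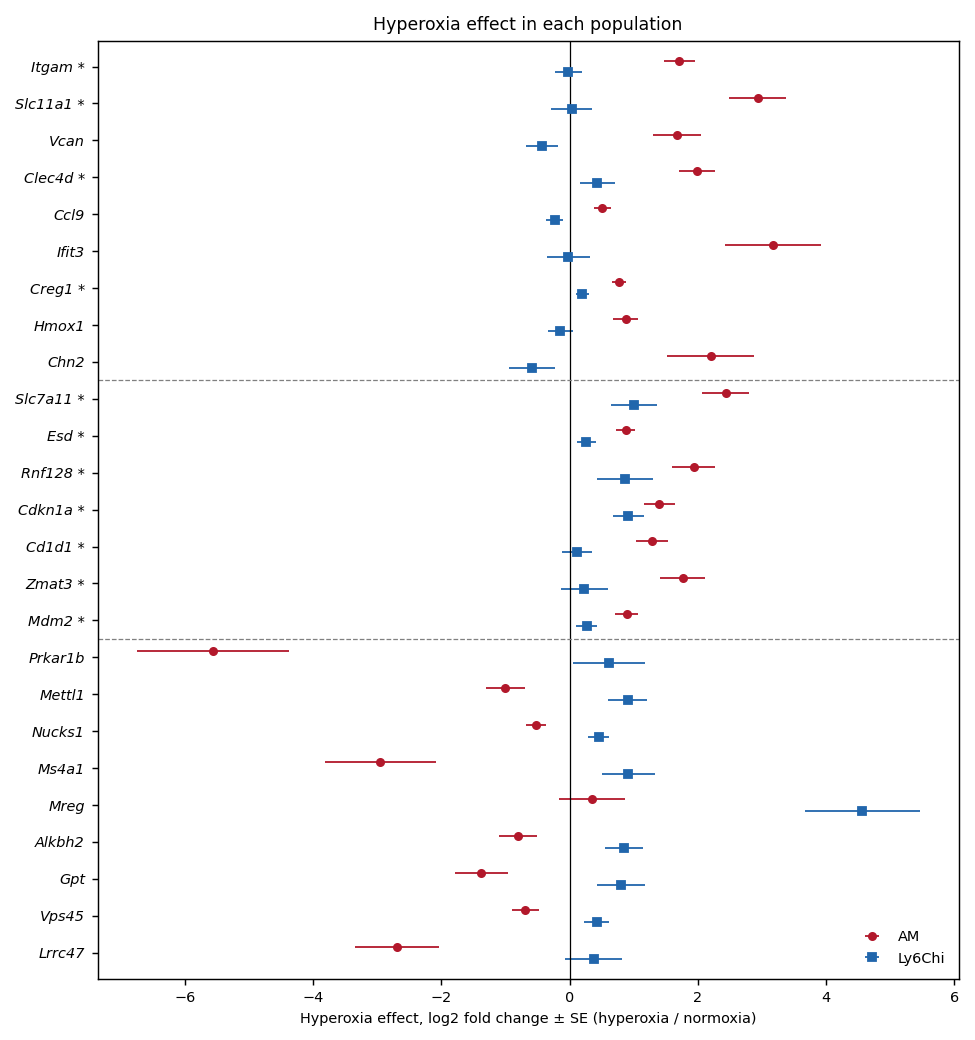
Hyperoxia effect as log2 fold change of hyperoxia over normoxia ± SE from edgeR, with AM in red circles and Ly6Chi in blue squares, for 9 of the 10 genes with the smallest p and a positive difference (top), the other named genes called in AM (middle) and 9 of the 10 with a negative difference (bottom); an asterisk marks a call in AM. In the top block all AM values are above 0 and the Ly6Chi values run between −0.59 and 0.43, and in the bottom block all Ly6Chi values are above 0.

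Genes of the NRF2 response had higher values in hyperoxic AM in every litter. Of 32 NRF2 antioxidant genes tested, 30 had a fold change above 0 in AM and 22 in Ly6Chi, and 27 had a difference above 0, against 47.6% of all genes. The median was 0.466 in AM, 0.184 in Ly6Chi and 0.356 for the difference, where all genes had medians of −0.0222, −0.00756 and −0.0231. Called in AM were 2 of the 32, Slc7a11 and Esd, against 0.102% of all genes called higher, and 0 in Ly6Chi or for the difference. At an unadjusted p under 0.05 the difference was higher in AM for 9 and lower for 0, against 2.24% and 2.74% of all genes. At the same threshold 20 were higher and 0 lower in AM, against 4.66% and 4.37% of all genes, and 4 were higher and 0 lower in Ly6Chi, against 3.23% and 1.75%. In AM 11 of the 32 had every hyperoxic library above every normoxic one, against 0.401% of all genes, and in Ly6Chi 0 did, against 0.0682%. Averaged over its genes, the NRF2 list had log2 CPM of 7.71, 7.69, 7.56, 7.58 and 7.56 in hyperoxic AM, against 6.90 to 7.04 in normoxic AM. In Ly6Chi it was 7.06, 6.90, 7.10, 6.996 and 6.97 in hyperoxia, against 6.63 to 7.02 in normoxia. The AM groups stood well apart and the Ly6Chi groups overlapped, and the difference of the list was 0.449, 0.372 and 0.486 in litters 93, 100 and 108.

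Slc7a11, the cystine importer that feeds glutathione synthesis, rose the most of the NRF2 genes called in AM. It had 144, 235, 629, 242 and 519 CPM in hyperoxic AM, against 36.2 to 109 CPM with a median of 64.1 in normoxic AM. In Ly6Chi it had 59.2, 80.2, 169, 59.3 and 164 CPM in hyperoxia, against 31.1 to 78.3 CPM with a median of 51.4 in normoxia. Both populations had higher means in hyperoxia, with no overlap in AM and overlap in Ly6Chi. Its log2 fold change was 2.43 ± 0.37 in AM (adjusted p = 0.00429) and 1.01 ± 0.36 in Ly6Chi, which was not called (adjusted p = 0.934), and the difference was 1.43 ± 0.51 (0.37 to 2.48, unadjusted p = 0.0107, adjusted p = 0.833). Esd, an esterase that completes the glutathione-dependent removal of formaldehyde, had 514, 476, 563.5, 393 and 426 CPM in hyperoxic AM, against 248 to 280.4 CPM with a median of 264 in normoxic AM. In Ly6Chi Esd had 126 to 318 CPM in hyperoxia and 128 to 204 CPM in normoxia. It rose in AM by 0.87 ± 0.15 (adjusted p = 0.00591), and its difference was 0.61 ± 0.21 (0.19 to 1.04, adjusted p = 0.815).

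Hmox1, haem oxygenase 1, which breaks haem down to biliverdin, iron and carbon monoxide, had 421, 453, 138.5, 219.5 and 361 CPM in hyperoxic AM, against 102 to 247 CPM with a median of 151 in normoxic AM. Levels in Ly6Chi were 344, 259, 158, 329.7 and 312.5 CPM in hyperoxia, against 230.5 to 315.5 CPM with a median of 289.5 in normoxia. Both of its group pairs overlapped, and its level in hyperoxic AM reached that of Ly6Chi. The difference was 1.02 ± 0.27 (0.45 to 1.58, adjusted p = 0.502), with 0.88 ± 0.20 in AM (adjusted p = 0.113) and −0.14 ± 0.20 in Ly6Chi. Gsr, glutathione reductase, had 386 to 464 CPM in hyperoxic AM and 294 to 370 CPM in normoxic AM, with a difference of 0.44 ± 0.15 (adjusted p = 0.815). Of 16 genes of haem breakdown and iron transport tested, which include Slc11a1 and Hmox1, 11 had a difference above 0, against 47.6% of all genes, with a median of 0.199. At an unadjusted p under 0.05 the difference of this list was higher for 2, Slc11a1 and Hmox1, and lower for 0, against 2.24% and 2.74% of all genes.

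Of 30 p53 targets tested, 3 (Cdkn1a, Mdm2 and Zmat3) were called in AM, against 0.102% of all genes called higher, and none was called in Ly6Chi or for the difference. Cdkn1a codes for p21, which blocks the kinases of the cell cycle. It had 218.5, 286.5, 372.5, 193 and 279.7 CPM in hyperoxic AM, against 77.6 to 140.2 CPM with a median of 115 in normoxic AM. Ly6Chi had 130, 162, 377, 72.8 and 161 CPM in hyperoxia, against 45.4 to 158 CPM with a median of 94.4 in normoxia. Both populations had a higher mean in hyperoxia. The log2 fold change was 1.40 ± 0.25 in AM (adjusted p = 0.0116) and 0.92 ± 0.24 in Ly6Chi (adjusted p = 0.536), and the difference of 0.49 ± 0.35 had an interval of −0.23 to 1.20 (unadjusted p = 0.172), which holds both no difference and one as large as the Ly6Chi effect. Mdm2, the ubiquitin ligase that degrades p53, had 109, 169, 217, 168 and 218 CPM in hyperoxic AM, against 80.9 to 114 CPM with a median of 89.7 in normoxic AM. In Ly6Chi Mdm2 had 153 to 189 CPM in hyperoxia and 86.6 to 175 CPM in normoxia. The AM groups overlapped, since replicate 1 in hyperoxia lay below the highest normoxic library. Mdm2 rose in AM by 0.89 ± 0.18 (adjusted p = 0.0378) and its difference was 0.63 ± 0.25 (adjusted p = 0.903).

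Zmat3, an RNA-binding target of p53, had 33.7, 38.6, 109, 80.3 and 54.7 CPM in hyperoxic AM, against 14.5 to 20.1 CPM with a median of 19.1 in normoxic AM. In Ly6Chi it had 7.27 to 13.5 CPM in hyperoxia and 2.60 to 17.9 CPM in normoxia, so it was low in that population in both conditions. It rose in AM by 1.76 ± 0.35 (adjusted p = 0.0378), with a difference of 1.53 ± 0.51 (0.47 to 2.59, adjusted p = 0.815). Ccng1, a cyclin induced by p53, had 212 to 299 CPM in hyperoxic AM and 120 to 185 CPM in normoxic AM, did not pass in AM (adjusted p = 0.0503) and had a difference of 0.75 ± 0.23 (adjusted p = 0.801). Over the whole list, 19 of 30 had a difference above 0, against 47.6% of all genes, with a median of 0.126. The populations were alike by list, with 19 above 0 in AM (median 0.165) and 21 in Ly6Chi (median 0.153). The mean difference of the list was −0.101, 0.345 and 0.0911 in litters 93, 100 and 108. The difference was higher for 3 of the p53 targets and lower for 1 at an unadjusted p under 0.05, against 2.24% and 2.74% of all genes. The 1 was Ckap2, a mitotic spindle gene, at −1.75 ± 0.60.

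The remaining genes called in AM were Rnf128, Cd1d1 and 1 gene with a clone name. Rnf128, a ubiquitin ligase that restrains T cell activation when T cells make it, had 71.5, 84.7, 114, 57.1 and 109 CPM in hyperoxic AM, against 13.2 to 37.9 CPM with a median of 25.5 in normoxic AM. In Ly6Chi it was near the floor, with 4 to 11 counts in hyperoxia and 0 to 9 counts in normoxia. It rose in AM by 1.93 ± 0.34 (adjusted p = 0.00927), and its difference of 1.07 ± 0.56 had an interval of −0.10 to 2.23. Cd1d1, which presents lipids to NKT cells, had 58.0, 47.3, 110.4, 69.6 and 181 CPM in hyperoxic AM, against 29.7 to 49.2 CPM with a median of 35.3 in normoxic AM, and 84.9 to 129 CPM in hyperoxic Ly6Chi, against 74.2 to 114 CPM in normoxic Ly6Chi. The AM groups of Cd1d1 overlapped at hyperoxic replicate 2. It rose in AM by 1.29 ± 0.25 (adjusted p = 0.0378) with a difference of 1.17 ± 0.34 (0.46 to 1.87, adjusted p = 0.695). Of all 12 genes called in AM, 10 had a difference at an unadjusted p under 0.05, the other two being Cdkn1a and Rnf128. Ly6Chi fold changes of the 12 ran between −0.02 and 1.01, and were below those in AM for all 12, which the choice by the AM value favours.

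Single libraries and litters moved the number of calls in AM. Without hyperoxic AM replicate 5 there were 6 calls, without replicate 3 there were 7 and without replicate 4 there were 29. Without litter 100 there were 3 (Creg1, Esd and Rnf128), and without litter 108 there were 4 (Clec4d, Creg1, Slc7a11 and Vcan). Without litter 93 there were 18, of which 6 were among the 12 called with all 22 libraries. Creg1, Esd and Rnf128 lost their call without litter 93 (adjusted p of 0.109, 0.124 and 0.171). None of the 12 thus kept its call through all 3 litter omissions. Creg1, Itgam, Clec4d, Slc7a11, Slc11a1 and Esd kept their call without each of the 22 libraries in turn. Rnf128 and Cdkn1a lost theirs without hyperoxic AM replicate 3 (adjusted p of 0.0592 and 0.0516) and without replicate 5 (0.0752 for both). Cd1d1, Zmat3 and Mdm2 lost theirs without replicate 3 (0.210, 0.274 and 0.232), without replicate 5 (0.148, 0.0787 and 0.136) and without several libraries of either condition. When the fit included how many genes each library detected, 0 genes were called in AM by edgeR, with 560 at an unadjusted p under 0.05. That number was lower in hyperoxic than in normoxic AM, and its part in the result was not tested further.

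Cell cycle genes had differences on one side of 0. All 33 genes of DNA replication and S phase tested had a difference below 0, where 52.4% of all genes did, with a median of −0.894. All 33 were below 0 in AM (median −0.901), whereas 20 were above 0 in Ly6Chi (median 0.0782). None of them was called, and 13 were lower in AM at an unadjusted p under 0.05, against 2.74% of all genes. All 37 genes of mitosis and G2/M tested also had a difference below 0 (median −1.0), all 37 were below 0 in AM and 33 were above 0 in Ly6Chi, and 13 were lower at an unadjusted p under 0.05. Members of a list are not independent of each other, since genes of the cell cycle move together from library to library.

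The litters were not alike in this. The mean log2 CPM of the mitosis list was 6.54 and 6.2 in the hyperoxic AM of litter 93, against 6.58 and 6.46 in its normoxic AM. It was 4.41 in the hyperoxic AM of litter 100, against 5.71 and 6.54 in its normoxic AM. In litter 108 it was 4.85 and 4.24 in hyperoxic AM, against 6.16 and 5.88 in normoxic AM. The 3 hyperoxic AM libraries of litters 100 and 108 thus lay below all others of the 22, and those of litter 93 lay within the normoxic range. In Ly6Chi the list had 6.16, 5.78, 5.46, 6.65 and 6.67 in hyperoxia, against 5.51 to 6.45 in normoxia. The difference of the mitosis list was −0.509, −1.07 and −2.04 in litters 93, 100 and 108, and −0.337 by its median without litter 108. For the S phase list the difference was −1.05, −1.25 and −1.12 in the same litters, where in litter 93 AM had −0.467 and Ly6Chi 0.587.

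Single genes of replication had negative differences that were not called. Gins1, a subunit of the replicative helicase, had 89.0, 62.3, 13.1, 41.9 and 19.3 CPM in hyperoxic AM, against 66.95 to 107 CPM in normoxic AM. In Ly6Chi Gins1 had 37.4 to 58.4 CPM in hyperoxia and 15.3 to 49.5 CPM in normoxia, and its difference was −1.68 ± 0.45 (adjusted p = 0.502). Mcm5, a subunit of the same helicase, had 26.2 to 79.6 CPM in hyperoxic AM and 82.8 to 121 CPM in normoxic AM, and no library of one group reached the other. In Ly6Chi Mcm5 had 76.8 to 144 CPM in hyperoxia and 67.1 to 149.9 CPM in normoxia, and its difference was −0.99 ± 0.33 (adjusted p = 0.815).

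**Figure D3:**
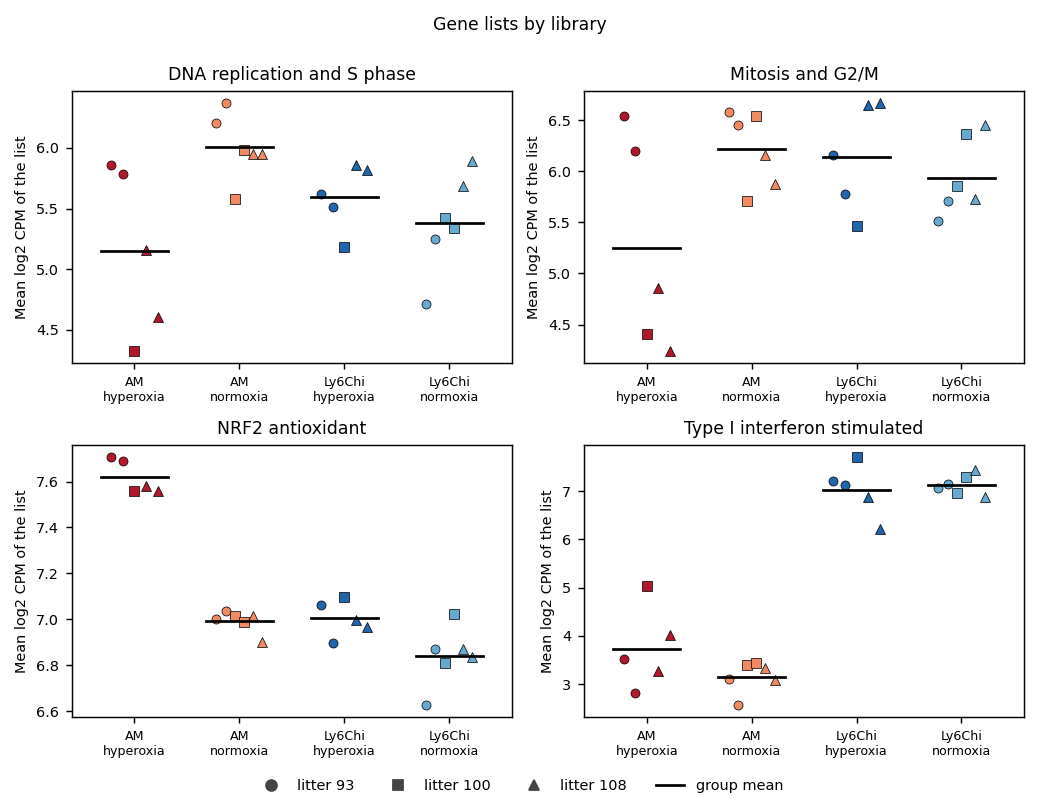
Mean log2 CPM of the tested genes of 4 lists in each library, with hyperoxic AM, normoxic AM, hyperoxic Ly6Chi and normoxic Ly6Chi from left to right; symbols mark the litter, the line is the group mean and the axes do not start at 0. The mitosis list lies at 4.24 to 4.85 in 3 hyperoxic AM libraries and at 6.2 and 6.54 in those of litter 93, and the NRF2 list lies at 7.56 to 7.71 in hyperoxic AM, above 6.90 to 7.04 in normoxic AM.

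The other negative differences were opposite in sign between the populations for most genes. Mettl1, which methylates transfer RNA, had 25.6, 23.7, 20.6, 14.3 and 18.03 CPM in hyperoxic AM, against 16.7 to 57.9 CPM with a median of 40.7 in normoxic AM. Levels in Ly6Chi were 21.9, 11.5, 17.7, 13.5 and 17.7 CPM in hyperoxia, against 5.78 to 13.03 CPM with a median of 8.14 in normoxia. The groups overlapped in both populations, and the difference was −1.91 ± 0.43 (adjusted p = 0.299). Nucks1, a nuclear DNA-binding protein of DNA repair, had 62.2 to 189 CPM in hyperoxic AM and 148 to 261 CPM in normoxic AM, with 56.7 to 110.0 CPM in hyperoxic Ly6Chi and 41.4 to 95.1 CPM in normoxic Ly6Chi. Its difference was −0.98 ± 0.23 (adjusted p = 0.341). Alkbh2, a repair enzyme for methylated bases (−1.66 ± 0.41), Vps45, a protein of vesicle fusion (−1.11 ± 0.28), and Gpt, alanine aminotransferase (−2.18 ± 0.55), had negative differences with an adjusted p of 0.461 each.

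Mreg, melanoregulin, was an exception: its difference of −4.22 ± 1.04 (adjusted p = 0.461) came from Ly6Chi, with 0.35 ± 0.52 in AM. It had 4, 3, 10, 3 and 35 counts in hyperoxic Ly6Chi, against 2 counts in 1 normoxic Ly6Chi library and 0 in the other 5. In AM it had 17.5 to 71.5 CPM in hyperoxia and 10.3 to 49.2 CPM in normoxia. Prkar1b, a regulatory subunit of protein kinase A, had 0 counts in all 5 hyperoxic AM libraries and 0 to 9 counts in normoxic AM, so its fitted difference of −6.18 is no measure of size. Lrrc47 was likewise thin, with 0 to 3 counts in hyperoxic AM and 5 to 15 in normoxic AM.

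Ms4a1, which codes for the B cell antigen CD20, stood among the 10 negative differences, and other B cell genes lay beside it. It had 0 or 1 count in every hyperoxic AM library, against 0 to 16 counts in normoxic AM. Ly6Chi had 72.3, 74.4, 39.5, 97.0 and 34.1 CPM in hyperoxia, against 10.4 to 60.6 CPM with a median of 30.1 in normoxia. All 8 B cell markers tested had a difference below 0 (median −2.84), against 52.4% of all genes, and 5 were lower at an unadjusted p under 0.05, against 2.74%. Summed over the list they made 58.6 to 85.8 CPM in hyperoxic AM, against 65.5 to 152 CPM in normoxic AM, and 320.5 to 585 CPM in hyperoxic Ly6Chi, against 230.5 to 395 CPM in normoxic Ly6Chi. The defining markers Cd79a and Cd79b reached at most 91.7 and 282 CPM in hyperoxic Ly6Chi. Markers of T and NK cells differed in the same direction (0 of 6 above 0, median −2.12), with a median of −1.31 without hyperoxic Ly6Chi replicate 3. Nkg7, a granule protein of cytotoxic lymphocytes, had 0, 0, 226, 7.64 and 46.0 CPM in hyperoxic Ly6Chi and at most 0.526 CPM in normoxic Ly6Chi. The part of lymphocytes in the Ly6Chi sort in the negative differences was not tested.

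**Figure D4:**
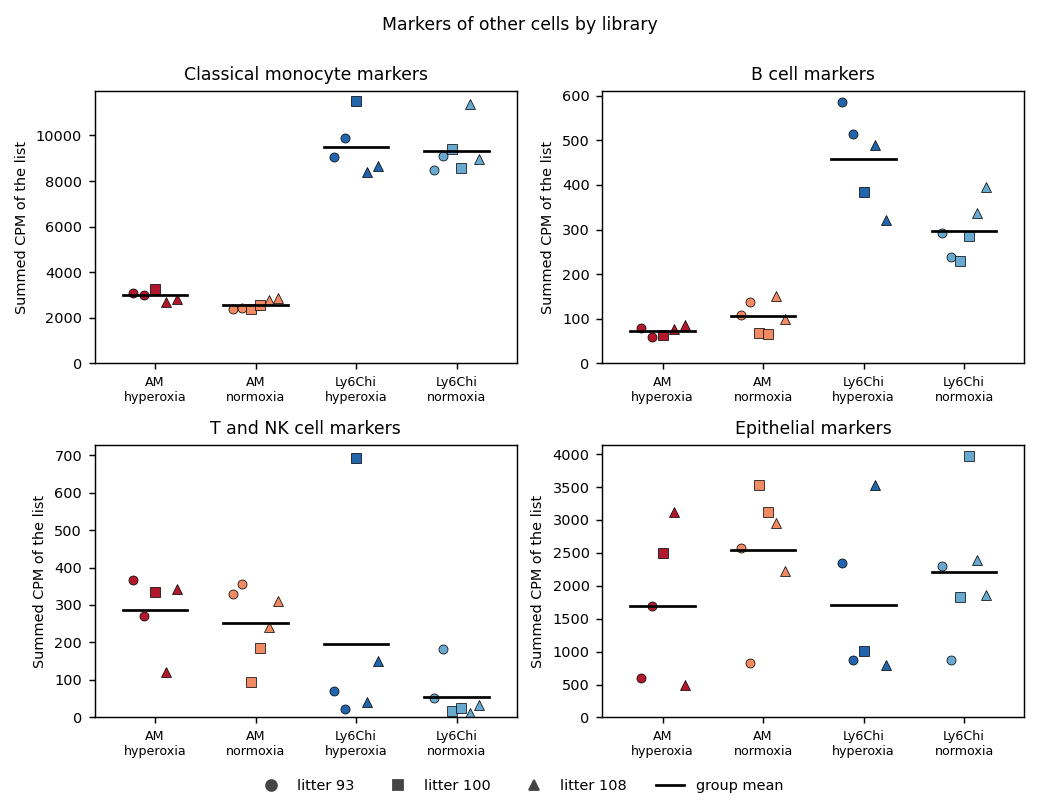
Summed CPM of markers of classical monocytes, B cells, T and NK cells and epithelium in each library, with hyperoxic AM, normoxic AM, hyperoxic Ly6Chi and normoxic Ly6Chi from left to right; symbols mark the litter and the line is the group mean. B cell markers sum to 320.5 to 585 CPM in hyperoxic Ly6Chi and to 230.5 to 395 CPM in normoxic Ly6Chi, and markers of T and NK cells reach 693 CPM in 1 hyperoxic Ly6Chi library.

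Interferon-stimulated genes had positive differences at low levels in AM. Of 30 genes stimulated by type I interferon, 26 had a difference above 0 (median 0.781), against 47.6% of all genes, and 27 were above 0 in AM and 13 in Ly6Chi. None was called for either population or the difference. At an unadjusted p under 0.05 the difference was higher in AM for 8 and lower for 0, against 2.24% and 2.74% of all genes. The list summed to 876, 698, 1870, 744 and 1621 CPM in hyperoxic AM, against 696 to 961 CPM with a median of 758.5 in normoxic AM. It summed to 6109, 6236, 8851, 5081 and 3949 CPM in hyperoxic Ly6Chi, against 5119 to 7284 CPM with a median of 5816 in normoxic Ly6Chi. Thus 2 of the 5 hyperoxic AM libraries, replicates 3 and 5, lay above normoxic AM, and every Ly6Chi library had a higher sum than every AM library. The difference was 0.268, 1.05 and 1.04 in litters 93, 100 and 108.

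Ifit3 (ENSMUSG00000074896), which binds other IFIT proteins that block viral RNA, had 3, 0, 12, 3 and 17 counts in hyperoxic AM, against 2, 0, 1, 0, 0 and 3 counts in normoxic AM. In Ly6Chi it had 58.4 to 186 CPM in hyperoxia and 72.3 to 134 CPM in normoxia. Its difference of 3.19 ± 0.83 (1.47 to 4.90, adjusted p = 0.486) thus rests on few reads in AM. Rsad2, viperin, had 105 CPM in hyperoxic AM replicate 3 and at most 8.70 CPM in the other hyperoxic AM libraries, against at most 3.35 CPM in normoxic AM, with a difference of 4.28 ± 1.27 (adjusted p = 0.801). The GAAA pair was found in 12 of the 22 type I interferon genes with a promoter entry and in 9 of 15 genes of the interferon gamma list, against 3.44% of all promoters. The counts are per gene, over any of its promoter entries, and the 3.44% is per single promoter.

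Genes induced by interferon gamma had values above 0 in both populations, with none called in either. Of 21 tested, 20 were above 0 in AM (median 1.27), 20 in Ly6Chi (median 0.457), and 17 had a difference above 0 (median 0.603). Their sums were 993, 977, 3270, 1017 and 2917 CPM in hyperoxic AM, against 798 to 1109 CPM in normoxic AM. In Ly6Chi they were 2585, 2868, 6660, 2556 and 3316 CPM in hyperoxia, against 1980 to 2897 CPM in normoxia. In both populations replicates 3 and 5 were high and the other 3 hyperoxic libraries lay within the normoxic range. Igtp, an interferon-induced GTPase, had 31.0, 26.2, 63.6, 12.5 and 108 CPM in hyperoxic AM, against 1.67 to 21.5 CPM in normoxic AM, with a difference of 1.62 ± 0.59 (adjusted p = 0.860). The difference of the list was 0.0895, 0.12 and 0.824 in litters 93, 100 and 108.

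Inflammatory, stress and metabolic lists had medians on either side of the −0.0231 of all genes. Of 29 NF-kB targets of inflammation, 27 were above 0 in AM (median 0.489) and 27 in Ly6Chi (median 0.565), and 14 had a difference above 0 (median −0.0228). The 2 at an unadjusted p under 0.05, Ccl5 (−6.80 ± 2.19) and Il1a (−2.47 ± 1.08), had their high values in hyperoxic Ly6Chi replicates 3 and 5. Ccl5, a T cell chemokine, had 567.8 CPM in replicate 3 and 74.8 CPM in replicate 5, against 0.548 to 4.49 CPM in the other 3 and at most 1.79 CPM in normoxic Ly6Chi. Il1a, interleukin 1 alpha, was high in AM, at 189 to 536 CPM in hyperoxia and 92.1 to 258 CPM in normoxia. Targets of the hypoxia-inducible factor had a median difference of 0.042 (13 of 22 above 0), oxidative phosphorylation −0.0355 (10 of 30), cholesterol synthesis −0.0844 (9 of 21) and immediate early genes 0.0655 (10 of 19). Toll-like receptors with Cd14 had a median of 0.13 (9 of 14 above 0). The medians of these 5 lists and of the NF-kB list took both signs when single libraries were left out, between −0.135 and 0.259 over all of them. For ER stress and ATF4 genes the median was −0.207, with 6 of 24 above 0, and for MHC class II genes −0.308, with 2 of 11 above 0, and the difference was lower for 1 and 0 of them at an unadjusted p under 0.05.

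Lists of lipid handling and tissue remodelling followed. Of 24 genes of lipid uptake, storage and export, 17 had a difference above 0 (median 0.208), against 47.6% of all genes, and 4 were higher and 0 lower at an unadjusted p under 0.05, against 2.24% and 2.74%. Lipa, the lysosomal acid lipase, had 1160, 1075, 564, 551 and 833 CPM in hyperoxic AM, against 403 to 776 CPM in normoxic AM, and 103 to 379.6 CPM in hyperoxic Ly6Chi, against 116 to 336 CPM in normoxic Ly6Chi. The groups overlapped in both, and its difference was 0.66 ± 0.29 (adjusted p = 0.965). Mgll, monoacylglycerol lipase, had 296 to 485 CPM in hyperoxic AM and 229.5 to 311 CPM in normoxic AM. In Ly6Chi Mgll had 6.197 to 20.22 CPM in hyperoxia and 3.664 to 38.25 CPM in normoxia. Its difference was 1.28 ± 0.58 (adjusted p = 0.968), with 0.531 ± 0.359 in AM and −0.747 ± 0.456 in Ly6Chi. The difference of Mgll thus rests in part on low levels in Ly6Chi. Matrix and remodelling genes had a median difference of 0.226 (15 of 23 above 0), with 0 at an unadjusted p under 0.05 and −0.0469 without litter 93, and their mean was 0.844, 0.0664 and −0.182 in litters 93, 100 and 108. Lectins and integrins had a median of 0.167 (13 of 19), where only Itgam and Clec4d were at an unadjusted p under 0.05.

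Markers of the populations themselves also entered the differences. Of 26 alveolar macrophage markers, 17 had a difference above 0 (median 0.171), against 47.6% of all genes, and 3 were higher and 1 lower at an unadjusted p under 0.05, against 2.24% and 2.74%. The median was −0.154 without libraries under 1000000 counts. Ear1, an eosinophil-associated ribonuclease of alveolar macrophages, had 242, 229, 170.3, 132 and 96.3 CPM in hyperoxic AM, against 149.9 to 184 CPM in normoxic AM. Its difference of 1.90 ± 0.53 (adjusted p = 0.584) came from Ly6Chi, where it had 0 to 3.83 CPM in hyperoxia and 2.30 to 11.7 CPM in normoxia. Car4 and Fabp4, a carbonic anhydrase and a fatty acid binding protein on this list, had differences of 2.04 ± 0.76 and 2.07 ± 0.90. These also came from Ly6Chi, with −1.84 ± 0.58 and −1.92 ± 0.76. Car4 had 6.64 to 95.7 CPM in hyperoxic and 36.4 to 255.5 CPM in normoxic Ly6Chi, the latter above the whole Ear1 range there. Car4 is thus not specific to AM in these libraries. Siglecf, the sorting antigen of AM, had 67.4 to 104 CPM in hyperoxic AM and 75.2 to 161 CPM in normoxic AM. In Ly6Chi it had 0 to 14 counts in hyperoxia and 1 to 14 counts in normoxia. Its difference of −1.22 ± 0.59 (adjusted p = 0.988) thus rests in part on few reads in Ly6Chi. In Ly6Chi 14 of the 26 markers had a fold change above 0 and 12 had one below 0. At an unadjusted p under 0.05, 4 were higher and 5 lower in Ly6Chi, against 3.23% and 1.75% of all genes. The part of AM or of other cells among the sorted Ly6Chi cells in these differences was not tested.

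**Figure D5:**
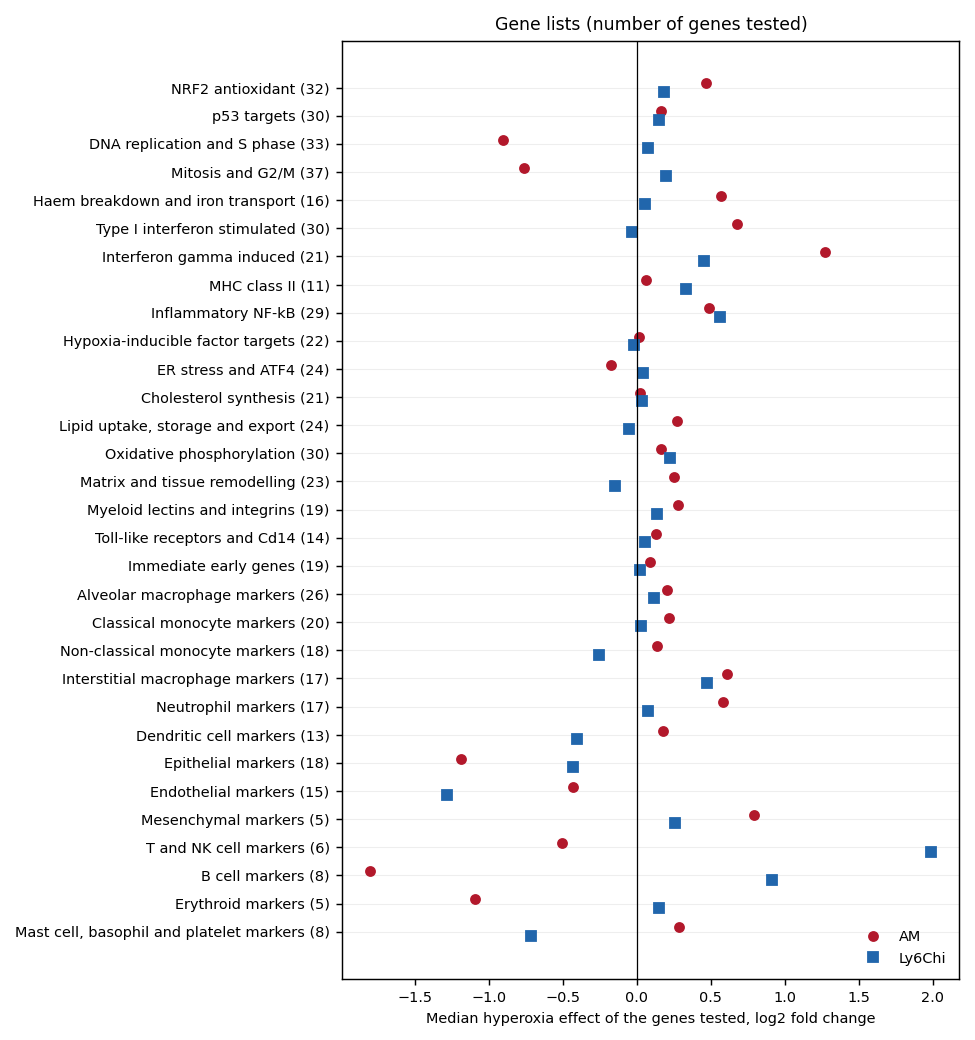
Median log2 fold change of hyperoxia over normoxia over the tested genes of each list, with AM in red circles and Ly6Chi in blue squares and the number of genes tested in brackets. AM and Ly6Chi lie on opposite sides of 0 for S phase (−0.901 and 0.0782), mitosis (−0.763 and 0.197) and B cell markers (−1.80 and 0.911), and close together for NF-kB targets (0.489 and 0.565).

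Markers of the other cells of the lung were spread widely among libraries. Epithelial markers summed to 499.8 to 3127 CPM in hyperoxic AM, against 832 to 3532 CPM in normoxic AM, and to 803 to 3532 CPM in hyperoxic Ly6Chi, against 870.5 to 3968 CPM in normoxic Ly6Chi. Their median difference was −0.37, with 4 of 18 above 0 and 0 at an unadjusted p under 0.05. All 18 epithelial markers were below 0 in AM (median −1.19) and 13 in Ly6Chi (median −0.43). At an unadjusted p under 0.05, 0 were lower in AM and 0 in Ly6Chi, against 4.37% and 1.75% of all genes. Endothelial markers had a median difference of 0.669 (13 of 15 above 0, 0 at an unadjusted p under 0.05), from −0.432 in AM and −1.28 in Ly6Chi. In Ly6Chi 14 of the 15 were below 0, and 6 were lower at an unadjusted p under 0.05, against 1.75% of all genes. In AM 13 of the 15 were below 0, and 0 were lower at that threshold, against 4.37% of all genes. Neutrophil (0.271, 11 of 17), dendritic cell (0.779, 11 of 13), interstitial macrophage (0.515, 12 of 17) and non-classical monocyte markers (0.21, 14 of 18) had positive medians. Without single libraries the median ran between −1.19 and 1.26 for neutrophil, −0.00751 and 0.401 for non-classical monocyte, 0.122 and 0.837 for interstitial macrophage and 0.263 and 0.98 for dendritic cell markers, and for interstitial macrophage markers it was −0.0904 without litter 93. In the same way it ran between −1.95 and 0.577 for epithelial and between −0.138 and 1.06 for endothelial markers. The sign thus turned without hyperoxic AM replicate 2 for neutrophil markers, without hyperoxic AM replicate 4 for non-classical monocyte and endothelial markers, and without hyperoxic Ly6Chi replicate 4 for epithelial markers. Erythroid (−1.25, 0 of 5), mesenchymal (0.677, 3 of 5) and mast cell, basophil and platelet markers (1.19, 7 of 8) rested on few genes. Without single libraries the median ran between −2.12 and 1.82 for erythroid markers, 1.82 being without hyperoxic Ly6Chi replicate 3, and between −1.06 and 1.73 for mesenchymal markers.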

How the data were processed

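The deposited table holds whole-number read counts for 37991 Ensembl genes, not normalized by the authors. Libraries were made with SMART-Seq V4 and Nextera XT, per the labels' protocols. The submitters' processing notes name TopHat, HTSeq 0.4.1, FastQC, Picard, SAMtools and the build NCBIM37, without their roles or order; whether counting used strand or removed duplicates is not given in the sources used here. Gene names came from GENCODE by Ensembl ID (32919 matched; genes without a symbol held 0.826% of counts), and 0 columns were left out.

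Counts of the 22 libraries were fitted with edgeR 4.0.16 in R 4.3.3 (robust quasi-likelihood, TMM, minimum count 10 and minimum total 15, 4 groups and litter as an additive term). P-values were Benjamini-Hochberg adjusted over all 11728 genes tested, with calls at 0.05. CPM are counts per TMM-scaled library, and log2 CPM used a prior count of 1. Medians and counts of a list cover its tested genes, and summed CPM covers all its genes in the table. The script was tested on simulated data. Alternatives were DESeq2 1.42.0, limma 3.58.1, other scalings, filters, litter terms, fits with other libraries or each population alone, a covariate for detected genes, a correction for a limit on read positions, and each library or litter left out.

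Named genes were those called for any contrast, the 10 with the smallest p in each direction of the difference, and up to 4 genes with the smallest p in each list, without clone names or pseudogenes; 2 genes that met this rule are not reported here. The members, lists and tests were chosen with earlier results of these data known. Figures used matplotlib 3.10.9.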

Additional observations from a re-analysis of the deposited data

Results flagged for a closer look

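In 15 of 228 sets of libraries checked (6.58%), where chance gives about 1 in 20, 1 library lay far from the others of its group. Hyperoxic Ly6Chi replicate 3 was the highest for Vcan (406.9 CPM, nearest 152.3), for classical monocyte markers (mean log2 CPM 8.847, nearest 8.406) and for erythroid markers (7.101, nearest 1.368). Hyperoxic AM replicate 3, of the same litter, was the highest for Vcan (37.44 CPM, nearest 19.27) and for T and NK cell markers (mean log2 CPM 4.673, nearest 3.183). In hyperoxic AM, replicate 5 was the highest for Alkbh2 (29.22 CPM, nearest 17.84), and replicate 4 was the lowest for lipid genes (mean log2 CPM 7.694, nearest 7.824) and for Toll-like receptors (5.106, nearest 5.428). In normoxic AM, replicate 4 was the lowest for Zmat3 (14.48 CPM, nearest 18.31), replicate 6 for NRF2 genes (mean log2 CPM 6.90, nearest 6.989) and replicate 2 for epithelial markers (3.17, nearest 5.414). Hyperoxic Ly6Chi replicate 1 was the highest for alveolar macrophage markers (mean log2 CPM 4.647, nearest 3.943). In normoxic Ly6Chi, replicate 3 was the highest for Mreg (1.302 CPM, nearest 0) and the lowest for Mdm2 (86.59 CPM, nearest 145.7), and replicate 6 was the lowest for Ifit3 (72.33 CPM, nearest 118.8).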

How the results depend on the processing

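The number of genes called for the difference between AM and Ly6Chi, 0 by edgeR, was 12 with DESeq2, 1 with limma voom, 1 with its library quality weights, 209 with no filter on low counts, 5 with all 43 libraries in the fit, 15 without libraries under 1000000 counts and 1 without litter 93. The number called in AM, 12 by edgeR, was 69 with DESeq2, 59 with quality weights, 337 with no filter and 27 with all 43 libraries. It was 0 with detected genes as a covariate, 18 without litter 93, 3 without litter 100 and 4 without litter 108. Without both hyperoxic libraries of litter 100, a setting chosen after seeing the data, it was 7. The number called in Ly6Chi, 0 by edgeR, was 8 with DESeq2, 230 with no filter, 1 with all 43 libraries and 1 without litter 93. Leaving out 1 library at a time gave 0 to 2 calls for the difference, 6 to 29 in AM and 0 to 2 in Ly6Chi. For these changes the cause was not tested, except that fewer libraries or other genes were in the fit where the setting says so. Mreg in AM turned to −0.15 with detected genes as a covariate. Of the values of named genes for the difference, 2573 kept direction and side of the threshold, 66 passed it and 0 turned. Choosing genes by a small p favours a kept direction, and no gene was called for the difference, so no call could be lost. Of the values of named genes for AM, where calls could be lost, 956 kept both, 31 passed the threshold, 122 fell back from it and 1 turned. AM and Ly6Chi libraries were not paired, because the labels name no pup and the replicate numbers follow accession order; litter was the block. Counts below 10 in some AM libraries limit Slc11a1, Vcan, Ms4a1, Ifit3, Chn2, Prkar1b, Gpt and Lrrc47, among others.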
